A study of Homo sapiens with 3 samples.

Results

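The small proline-rich (SPRR) genes and involucrin were followed in BxPC-3, an established human line of pancreatic ductal adenocarcinoma. The set held 8 of the 33694 genes in the count matrices and was taken by symbol: SPRR1A, SPRR1B, SPRR2A, SPRR2D, SPRR2E, SPRR2F, SPRR3 and IVL. BxPC-3 cells carrying EGFP and BxPC-3 cells carrying mCherry were mixed in equal number and held in suspension, which lets one cell enter another (entosis, a cell-in-cell structure). Sorted cells with both colours gave the double-positive library, sorted cells with a single colour gave the single-positive library, and parental cells gave the third. All 3 came from the same line and from droplet libraries of the 10x Chromium 5′ kit, version 2. Neither a dose, a time in suspension nor a further treatment is given in the labels. Single-positive cells are defined as carrying either colour alone, and whether both kinds were pooled is not said. Cells were expanded before the libraries were made, but the labels do not place the expansion before or after the sort. With 1 library per population, differences have no replicate check, no test between populations was possible, and every interval covers counting error only.

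SPRR proteins are short, rich in proline, glutamine and lysine, and are cross-linked by transglutaminases into the cornified envelope, the protein shell that replaces the plasma membrane of dying squamous cells. Involucrin is laid down early as the scaffold to which SPRR proteins, loricrin and other precursors are joined. The genes lie together in the epidermal differentiation complex of chromosome 1q21. A simple ductal epithelium makes no cornified envelope, and SPRR genes, SPRR2 genes above all, are also known to be induced by injury and inflammation in non-squamous epithelia.

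The 8 genes lay within 204.971 kb of chromosome 1 (GRCh38, GENCODE 29), from IVL to SPRR2F. On the plus strand were IVL at chr1:152908545-152911886, SPRR1A at chr1:152985231-152985500, SPRR3 at chr1:153001747-153003856 and SPRR1B at chr1:153031202-153032900. On the minus strand were SPRR2D at chr1:153039725-153041931, SPRR2A at chr1:153056113-153057537, SPRR2E at chr1:153093135-153106184 and SPRR2F at chr1:153112114-153113515. The SPRR2 genes are near copies of each other. Their coding sequences are shown because reads from them can be told apart only where they differ. Each line runs 5′ to 3′ on the minus strand, and capitals mark the bases at which a gene differs from SPRR2A. The coding parts lie at chr1:153056520-153056735 (SPRR2A), chr1:153040131-153040346 (SPRR2D), chr1:153093536-153093751 (SPRR2E) and chr1:153112518-153112733 (SPRR2F).
SPRR2A: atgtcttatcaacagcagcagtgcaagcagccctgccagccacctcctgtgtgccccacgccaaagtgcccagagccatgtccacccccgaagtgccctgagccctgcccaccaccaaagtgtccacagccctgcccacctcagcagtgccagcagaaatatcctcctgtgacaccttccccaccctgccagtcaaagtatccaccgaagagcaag
SPRR2D: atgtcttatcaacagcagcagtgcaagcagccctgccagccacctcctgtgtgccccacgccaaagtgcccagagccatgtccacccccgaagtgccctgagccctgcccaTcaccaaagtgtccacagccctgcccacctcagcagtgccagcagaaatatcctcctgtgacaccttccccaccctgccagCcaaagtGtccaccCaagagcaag
SPRR2E: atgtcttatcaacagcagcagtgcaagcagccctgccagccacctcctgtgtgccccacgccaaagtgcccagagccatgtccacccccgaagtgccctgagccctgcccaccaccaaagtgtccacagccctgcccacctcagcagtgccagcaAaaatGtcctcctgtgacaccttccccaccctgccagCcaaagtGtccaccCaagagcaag
SPRR2F: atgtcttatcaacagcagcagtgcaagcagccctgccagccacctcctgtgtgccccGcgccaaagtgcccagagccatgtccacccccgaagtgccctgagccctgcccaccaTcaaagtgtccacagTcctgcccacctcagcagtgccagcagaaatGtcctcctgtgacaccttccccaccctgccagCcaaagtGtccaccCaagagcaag

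Of 216 coding bases, SPRR2D differed from SPRR2A at 4, SPRR2E at 5 and SPRR2F at 7, and the longest stretch shared by SPRR2A and SPRR2E was 155 bases. SPRR1A and SPRR1B differed at 10 of 267 coding bases. Over whole transcripts, untranslated parts included, 32.7% of the 50-base windows of SPRR2A were also found in another SPRR transcript. The same share was 26.8% for SPRR2D, 23.0% for SPRR2E, 18.2% for SPRR2F, 11.3% for SPRR1A and 4.38% for SPRR1B. No 50-base window of SPRR3 or IVL was shared. With 90-base windows the shares were 21.6% for SPRR2A, 5.91% for SPRR2D, 13.6% for SPRR2E and 0% for SPRR2F, SPRR1A and SPRR1B. Among the first 100 windows of 90 bases, the end that a 5′ library reads, 45 of SPRR2A and 41 of SPRR2E were shared and none of SPRR2D. The read length, the annotation release and the treatment of reads that match several genes are not given in the sources used here. A level of one SPRR2 gene is therefore uncertain where reads could be split or lost, and the sum over SPRR2A, SPRR2D, SPRR2E and SPRR2F is given beside the single genes. SPRR1A carries a second limit, since its GENCODE 29 model is only the 270-base coding exon while RefSeq starts the gene 1150 bases further upstream.

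Cells were barcodes with at least 6500 unique molecular identifiers (UMIs, each standing for 1 captured RNA molecule). There were 1940 double-positive, 1291 single-positive and 2409 parental cells, with medians of 29963.5, 38137 and 23290 UMIs. Of 5640 cells, 8 barcodes were shared between libraries, and none was over 20% mitochondrial UMIs. Markers of the line were present: the 9 epithelial markers summed to 8067 CPM (UMIs per 1000000 UMIs of the cells of a library) in double-positive, 8779 in single-positive and 8632 in parental cells. Summed over their lists, fibroblast, endothelial, erythroid and neural or endocrine markers reached at most 2.30 CPM in any library. Immune markers summed to 36.7, 33.0 and 45.0 CPM in double-positive, single-positive and parental cells, mostly from CD68, a lysosomal gene (32.0, 29.1 and 39.1), while PTPRC, which defines leukocytes, was at 0 in all 3. Acinar markers summed to 7.60, 7.41 and 38.4 CPM, with 5, 5 and 4 of 7 at 0. The part of the acinar difference in other results was not tested. The single-positive library held 297 cells under 20000 UMIs that stood apart from its other cells, as described below. Levels in CPM are sums over the cells of a library and were not divided by transcript length. Shares of cells were read after each cell was thinned at random to 6500 UMIs, so that cells of different depth had the same chance.

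In all 3 populations every gene of the set was detected, and with all cells none of the 8 lay 1.5-fold or more apart between any 2 libraries. Over the 7687 genes averaging 10 CPM or more, 0.559% lay 1.5-fold or more apart between double-positive and single-positive cells, 0.403% between single-positive and parental cells and 0.52% between double-positive and parental cells. Of the 8 members, 6 passed that floor and SPRR2F and IVL did not. Summed over the 8, double-positive cells held 390 CPM (95% Poisson interval 385 to 394), single-positive cells 307 (302 to 312) and parental cells 342 (337 to 346). The log2 ratio of the sum was 0.34 (0.31 to 0.37) for double-positive over single-positive cells, −0.15 (−0.18 to −0.13) for single-positive over parental cells and 0.19 (0.16 to 0.21) for double-positive over parental cells. For single-positive over parental cells the median of the members that passed the floor was −0.14 against 0.049 over all such genes. For double-positive over single-positive cells these medians were 0.32 and −0.023, and for double-positive over parental cells 0.14 and 0.026.

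The 3 ratios of the sum moved with the choice of cells. Without the 1% of cells richest in these transcripts, the log2 ratio was 0.53 for double-positive over single-positive, −0.48 for single-positive over parental and 0.048 for double-positive over parental cells. In cells called G1 the same ratios were −0.10, 0.13 and 0.022, so the order of double-positive and single-positive cells was the other way round. The 2 richest single-positive cells were both called G1 and held 2133 and 1170 of the 10487 member UMIs there. The richest double-positive cell, also called G1, held 1284 of 13686. The order in G1 without these cells was not computed. In cells within the range of 22974 to 32998 UMIs that the libraries share (701, 142 and 628 cells), the ratios were 1.54, −1.37 and 0.16. Single-positive cells lay more than 1.5-fold below both other populations there. The single-positive cells at ranks 1 to 5 by SPRR2 UMIs all lay outside this range. A double-positive cell with 492 SPRR2 UMIs and a parental cell with 494 lay inside it. The ratios in this range without such cells were not computed. Single genes moved further, but the share of all genes 1.5-fold or more apart was not computed for the alternatives. For double-positive over single-positive cells, SPRR2A lay 1.5-fold or more apart in 6 of 15 alternatives, SPRR2D in 5 and SPRR2E in 4, with log2 ratios up to 1.87, 2.32 and 4.15 in the shared range and of −0.040, −0.19 and −0.52 in G1 cells. For single-positive over parental cells, SPRR3 did so in 3, down to −0.80, and SPRR2D turned its sign in 5. For double-positive over parental cells, IVL did so in 3, down to −0.94 in G1 cells. SPRR1B and SPRR3 kept their signs in all 15 alternatives of each comparison.

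**Figure D1:**
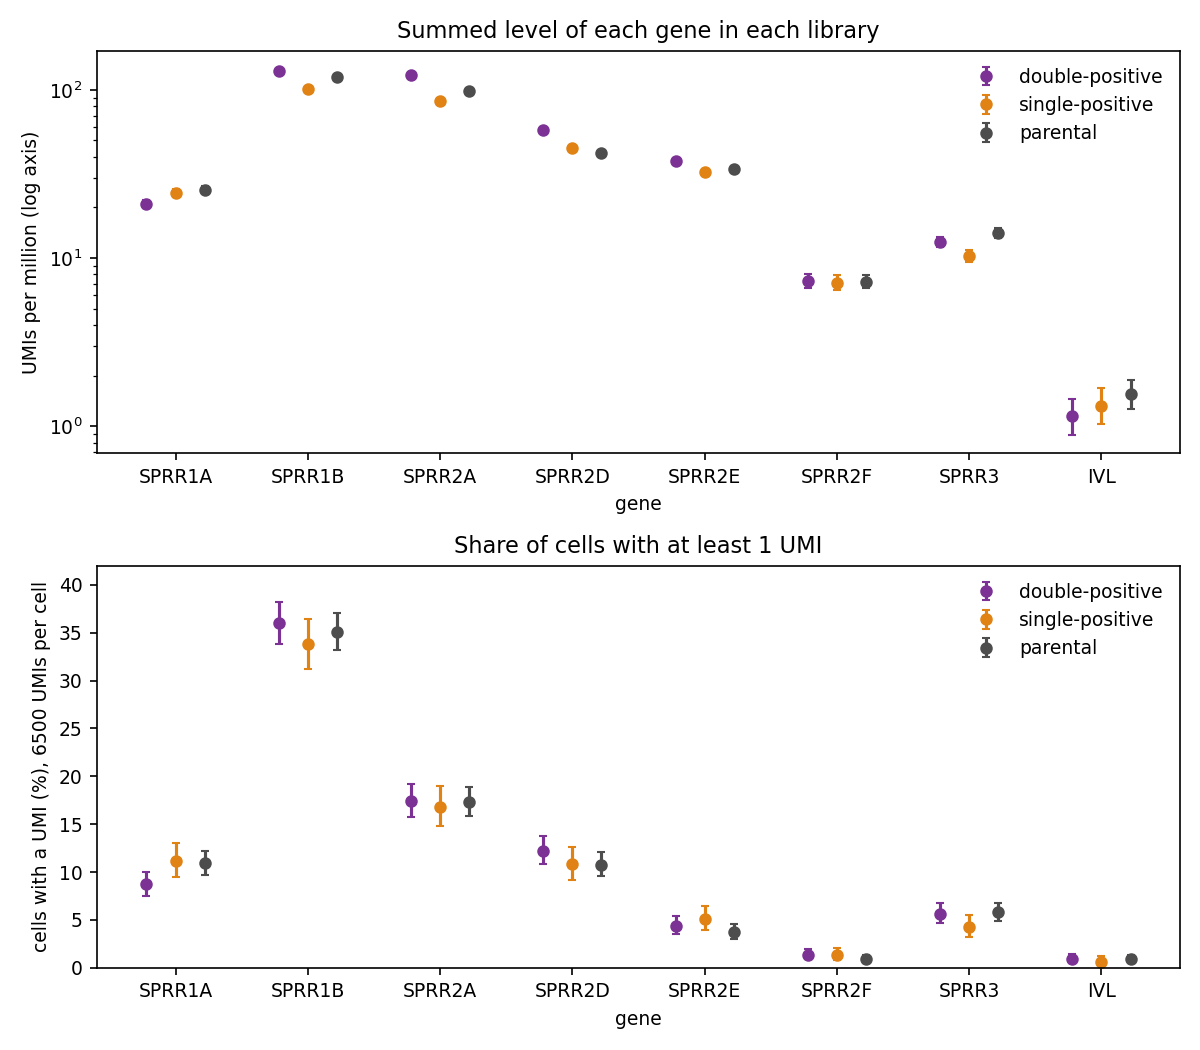
Level of each gene as CPM summed over the cells of a library (upper panel, log axis, bars are 95% Poisson intervals) and share of cells with at least 1 UMI after thinning to 6500 UMIs (lower panel, bars are 95% Clopper-Pearson intervals), in double-positive, single-positive and parental cells. The libraries lie close together for every gene, with SPRR2A at 122, 85.5 and 98.4 CPM as the widest gap in UMIs among the SPRR2 genes.

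SPRR1B, which encodes cornifin-B, was at 130 CPM in double-positive, 101 in single-positive and 119 in parental cells. Its log2 ratio was 0.36 (0.31 to 0.41) for double-positive over single-positive and 0.13 (0.08 to 0.17) for double-positive over parental cells. SPRR1A, which encodes cornifin-A, was at 21.1 CPM in double-positive, 24.4 in single-positive and 25.5 in parental cells. Its log2 ratio of −0.27 (−0.38 to −0.17) for double-positive over parental cells pointed the other way from SPRR1B. Between single-positive and parental cells the interval of SPRR1A, −0.17 to 0.05, included 0.

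SPRR2A, the member of this subfamily most often described as induced outside the skin, was at 122 CPM in double-positive, 85.5 in single-positive and 98.4 in parental cells. The log2 ratio of 0.51 (0.46 to 0.56) for double-positive over single-positive cells, a ratio of 1.42, was the largest among the 8 genes in that comparison. SPRR2D was at 57.8, 44.8 and 41.97 CPM in double-positive, single-positive and parental cells. Its log2 ratio of 0.46 (0.39 to 0.53) for double-positive over parental cells was the largest there. SPRR2E was at 37.8 in double-positive, 32.4 in single-positive and 34.0 in parental cells. SPRR2F was at 7.34, 7.15 and 7.26 CPM in the same order, but 1 cell held 34.3%, 33.5% and 43.6% of its UMIs. Without cells under 0.5% mitochondrial UMIs its log2 ratio was 2.30 for double-positive over single-positive and −2.72 for single-positive over parental cells, and in G1 cells it was −1.25 and 0.83. Summed over the 4 genes, SPRR2 was at 225 CPM in double-positive, 170 in single-positive and 182 in parental cells. The sum does not depend on how reads are split among the genes, but reads lost for matching several genes would lower it. The log2 ratios of that sum were 0.40 (0.36 to 0.44), −0.10 (−0.14 to −0.06) and 0.31 (0.27 to 0.34) in the same 3 comparisons.

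SPRR3, known as esophagin and abundant in the oesophagus, was at 12.5 CPM in double-positive, 10.3 in single-positive and 14.05 in parental cells. Its log2 ratio of −0.45 (−0.61 to −0.29) for single-positive over parental cells was the largest in size among the members in that comparison. IVL, the involucrin scaffold, had 70 UMIs in double-positive, 67 in single-positive and 99 in parental cells, or 1.14, 1.33 and 1.55 CPM. All 3 intervals of its log2 ratios included 0, so a difference in IVL was not detectable at this depth.

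Shares of cells with a transcript did not follow the levels gene by gene: for SPRR1B, SPRR2A and SPRR2D they lay closer together than the levels, and for SPRR1A, SPRR2E and SPRR2F further apart. SPRR1B was seen in 36.0% of double-positive (33.8 to 38.2), 33.8% of single-positive (31.2 to 36.4) and 35.1% of parental cells (33.2 to 37.1). SPRR2A was seen in 17.4%, 16.8% and 17.4% of double-positive, single-positive and parental cells, and at least 1 SPRR2 gene in 23.0%, 23.3% and 21.6%. SPRR2D was seen in 12.2%, 10.8% and 10.8%, SPRR2E in 4.38%, 5.11% and 3.78% and SPRR2F in 1.34%, 1.32% and 0.872%. SPRR1A was seen in 8.71% of double-positive, 11.2% of single-positive and 10.9% of parental cells, and SPRR3 in 5.67%, 4.26% and 5.81%. IVL was seen in fewer than 1% of cells, 0.876%, 0.620% and 0.872%. Of the 8 genes at least 1 was seen in 48.9%, 45.7% and 47.7% of cells. At full depth, which differs between libraries, that share was 73.9% of double-positive, 72.7% of single-positive and 69.9% of parental cells. Free RNA, taken as barcodes with at most 100 UMIs, held the 8 genes at 554 CPM around double-positive, 304 around single-positive and 368 around parental cells. The largest barcodes below the cell call had means of 66.5, 50.4 and 71.4 UMIs in the double-positive, single-positive and parental libraries. With that many UMIs, free RNA would give a UMI of the 8 genes in 3.62%, 1.52% and 2.59% of barcodes. The amount of free RNA held by a cell was not measured. No cell type that lacks SPRR1B was at hand to measure that background directly.

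The neighbouring genes of the same family had almost no UMIs. How much sequence SPRR2B and SPRR2G share with other SPRR transcripts was not computed. Reads lost for matching several genes would lower their counts. SPRR2B had 1 UMI in double-positive, 1 in single-positive and 5 in parental cells, SPRR2G had 0, 0 and 1, and SPRR4 had 1, 0 and 0. Loricrin (LOR), the main envelope protein of the epidermis, had no UMI in any library, which allows at most 0.049 CPM in double-positive, 0.0595 in single-positive and 0.047 in parental cells. The 32 other envelope precursors of the complex, loricrin included, with filaggrin and the late cornified envelope genes, summed to 7.10, 9.71 and 12.9 CPM in double-positive, single-positive and parental cells, and none reached the floor of 10. Among transglutaminases, which form the cross-links, TGM1, the membrane-bound enzyme of keratinocytes, had 122 UMIs in double-positive, 57 in single-positive and 90 in parental cells. TGM3 had 1, 0 and 0 and TGM5 had 2, 3 and 5. TGM2, the tissue transglutaminase, was the only one past the floor, at 191 CPM in double-positive, 250.5 in single-positive and 182 in parental cells.

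The SPRR2 transcripts sat in few cells. The 19 double-positive cells richest in SPRR2, 1% of that library, held 48.8% of its SPRR2 UMIs, the 13 richest single-positive cells 62.2%, and the 24 richest parental cells 41.1%. KRT7, a keratin of simple epithelium expressed throughout the line, had 4.30%, 4.64% and 4.61% of its UMIs in its own richest 1% of double-positive, single-positive and parental cells. SPRR2E was concentrated further, with 79.5%, 85.1% and 75.1%, whereas SPRR1B had 14.3%, 18.4% and 13.2%. SPRR2A had the second largest variance over mean (31.5) of 7687 genes in double-positive cells, the 13th largest (21.9) in single-positive cells and the 27th largest (10.7) in parental cells. SPRR2E ranked 5, 11 and 7. The median over those genes was 1.06 in each library. For SPRR2A, 1 double-positive cell had 160 UMIs of 6500 and the next had 50. The ranks without that cell were not computed.

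**Figure D2:**
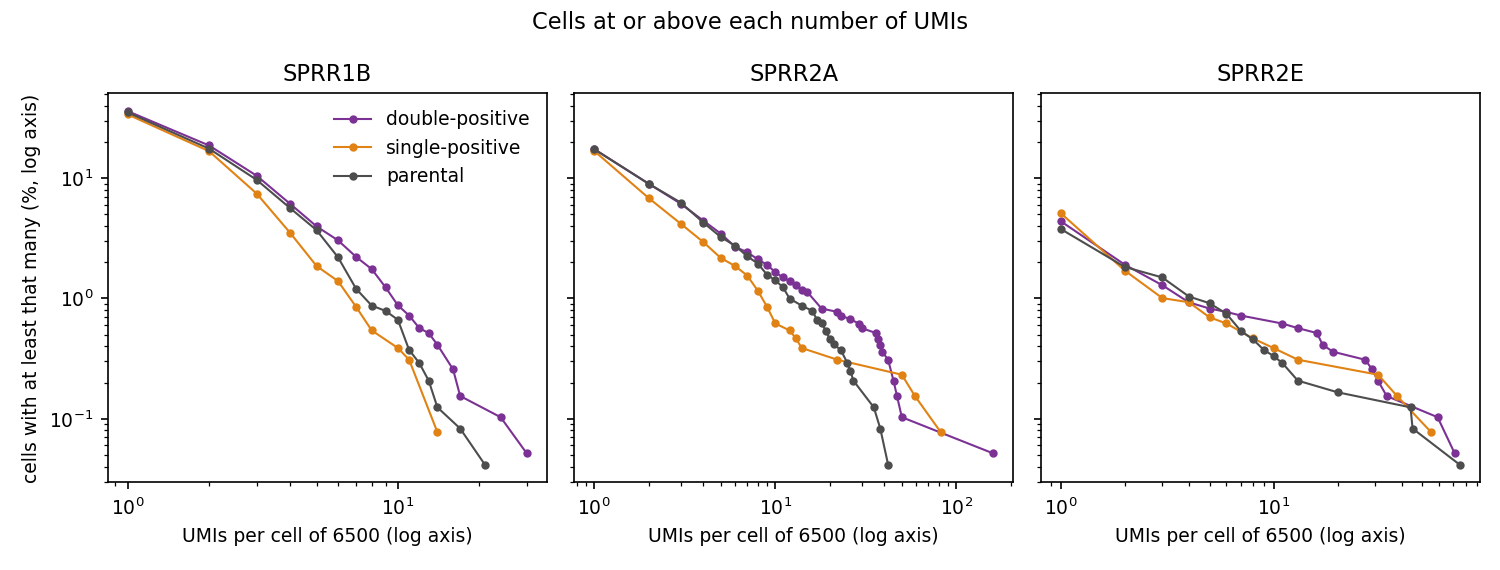
Share of cells (log axis) with at least a given number of UMIs of SPRR1B, SPRR2A and SPRR2E per 6500 UMIs (log axis), in double-positive, single-positive and parental cells. SPRR1B was seen in more cells and stopped at 30, 14 and 21 UMIs, while SPRR2A reached 160, 82 and 42 UMIs in single cells.

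In the richest single-positive cell, 2028 of 78186 UMIs were from SPRR2 genes, and this cell held 23.7% of all SPRR2 UMIs of its library. It carried 931 UMIs of SPRR2A, 607 of SPRR2D, 386 of SPRR2E and 104 of SPRR2F, with 86 of SPRR1B and 11 of IVL. The richest double-positive cell had 1114 SPRR2 UMIs of 20924, or 5.32%, with 494 of SPRR2A, 372 of SPRR2D, 248 of SPRR2E and 0 of SPRR2F. The richest parental cell had 950 SPRR2 UMIs of 50391, with 276 of SPRR2A, 135 of SPRR2D, 337 of SPRR2E and 202 of SPRR2F, and 7 of SPRR1B. The mix of near-identical SPRR2 genes differed from cell to cell. Among cells with at least 50 SPRR2 UMIs, SPRR2E made up 0% to 49.2% of them in 52 double-positive cells, 0% to 48.8% in 25 single-positive cells and 0% to 68.7% in 42 parental cells. SPRR2E was at 0 in 13, 3 and 4 of those cells, and SPRR2F in 24, 10 and 19.

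Cells were put in 4 ranges by their SPRR2 UMIs after thinning: 0, 1 to 4, 5 to 19 and 20 or more. These are ranges along a continuous scale, with 105 double-positive, 51 single-positive and 121 parental cells between 3 and 6 UMIs and 17, 7 and 15 between 15 and 24. The top range held 22 of 1940 double-positive, 7 of 1291 single-positive and 24 of 2409 parental cells, and 50.3%, 52.7% and 39.3% of the SPRR2 UMIs. The SPRR genes outside the SPRR2 group, which the ranges did not use, increased along them. SPRR1B was at 83.6, 172, 470 and 1208 CPM across the 4 ranges in double-positive cells, 67.4, 178, 412 and 958 in single-positive cells and 82.5, 158, 454 and 831 in parental cells. SPRR1A was at 10.3, 28.0, 118 and 254 in double-positive cells, 11.8, 42.03, 188 and 335 in single-positive cells and 14.8, 39.6, 120 and 194 in parental cells. SPRR3 was at 7.02, 18.7, 59.4 and 95.8 in double-positive cells, 7.12, 11.5, 66.9 and 74.8 in single-positive cells and 8.50, 19.4, 69.7 and 112 in parental cells. All 22, 7 and 24 cells of the top range had a UMI of SPRR1B, and 8, 3 and 9 had one of IVL. No single cell gave more than 27.2% of the SPRR1B UMIs of a top range. In the single-positive top range 1 cell gave 36.6% of the 112 SPRR1A UMIs, 40% of the 25 SPRR3 UMIs and 73.3% of the 15 IVL UMIs, so the last step of SPRR3 there, 66.9 to 74.8 CPM, rests on few UMIs. Of the SPRR3 UMIs, 1 cell gave 28.99% in the double-positive and 33.3% in the parental top range.

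**Figure D3:**
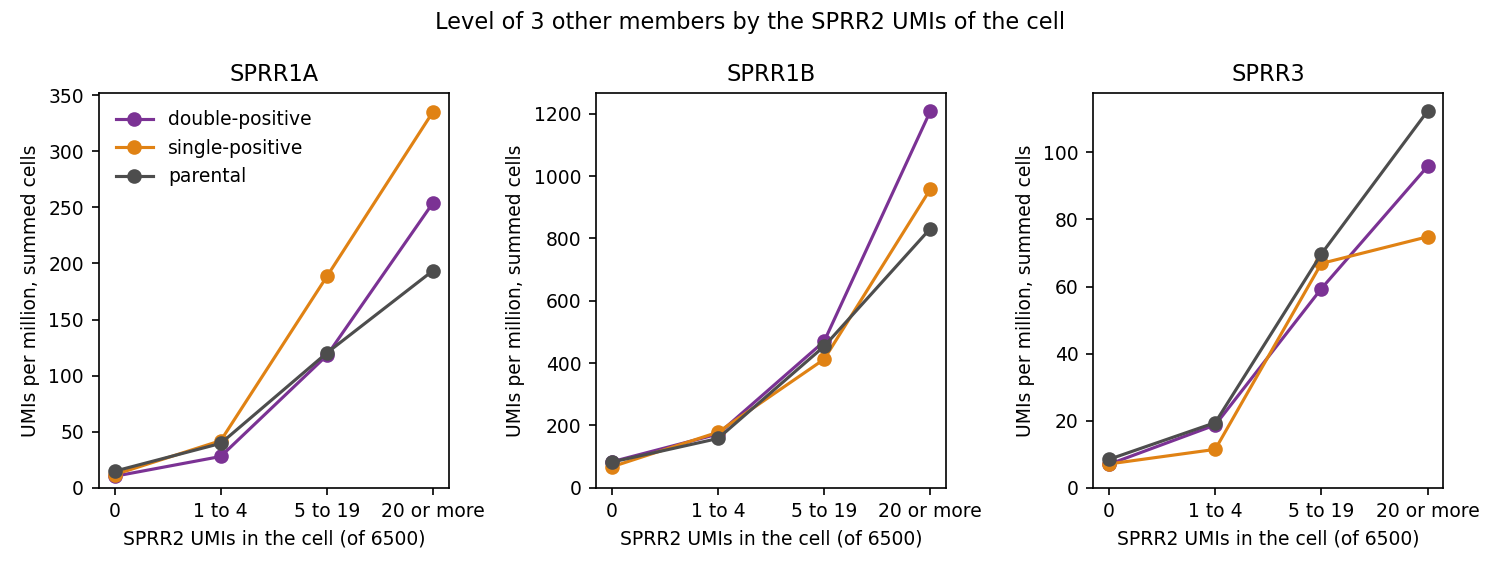
Level of SPRR1A, SPRR1B and SPRR3 in CPM over the summed cells of 4 ranges of SPRR2 UMIs per 6500, in double-positive, single-positive and parental cells. SPRR1B climbs with the range in every library, to 1208, 958 and 831 CPM in the top range, which holds 22, 7 and 24 cells.

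Members were found together more often than their shares give in 82 of 84 pairs and libraries; the exceptions, with no cell holding both, were SPRR2F with IVL in parental and SPRR3 with IVL in single-positive cells. A cell with SPRR1B also had SPRR2A in 29.4% of double-positive, 31.0% of single-positive and 31.2% of parental cells, against 10.7%, 9.59% and 9.85% of cells with no SPRR1B UMI. Of the cells with SPRR2E, 81.2%, 63.6% and 90.1% also had SPRR2A. Pearson's r of the logged counts across cells was 0.57 to 0.69 for SPRR2A with SPRR2D and 0.56 to 0.60 for SPRR2A with SPRR2E over the 3 libraries. SPRR2E with SPRR2F gave 0.43 to 0.61. These pairs have sequence in common, and how reads matching both genes were counted is not given. SPRR1B with SPRR2A gave 0.34 to 0.39, SPRR1A with SPRR1B 0.33 to 0.38, and SPRR1B with SPRR3, which shares no 50-base window with any member, 0.24 to 0.28. IVL was the loosest, with r from −0.02 to 0.30 over its 7 partners. The cells of a correlation share a library, and the n were 1940, 1291 and 2409 cells.

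**Figure D4:**
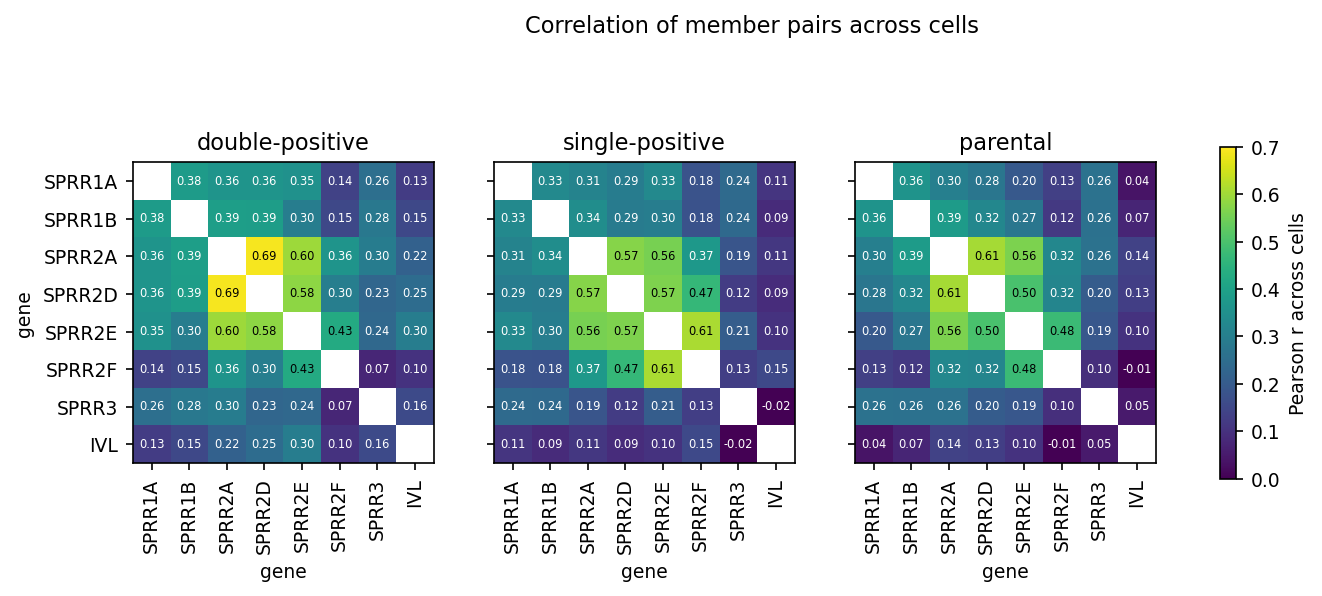
Pearson r of log counts across cells thinned to 6500 UMIs for each pair of the 8 genes (both axes list genes, colour is r), in 1940 double-positive, 1291 single-positive and 2409 parental cells. The block of SPRR2 genes has the highest values, up to 0.69, and the IVL row the lowest.

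The promoters of genes that were detected together are shown for SPRR1B, SPRR2A and SPRR2F, as the 250 bases before the RefSeq start (GRCh38.p14, 5′ to 3′ on the strand of the gene). They are chr1:153030953-153031202 on the plus strand for SPRR1B, and chr1:153057513-153057762 and chr1:153113517-153113766 on the minus strand for SPRR2A and SPRR2F. RefSeq promoters were matched for 6 of the 8 genes. Capitals mark the motifs TGANTCA (AP-1), ATTTGCAT (octamer, bound by POU factors), GGAA followed after 2 bases of any kind by GAAA (ETS-IRF composite) and TATAAA, searched on both strands.
SPRR1B: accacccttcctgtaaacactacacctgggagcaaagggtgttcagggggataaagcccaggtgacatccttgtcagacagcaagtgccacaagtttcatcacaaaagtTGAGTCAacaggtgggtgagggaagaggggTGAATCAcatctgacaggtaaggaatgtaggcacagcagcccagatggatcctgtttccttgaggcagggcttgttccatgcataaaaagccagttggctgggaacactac
SPRR2A: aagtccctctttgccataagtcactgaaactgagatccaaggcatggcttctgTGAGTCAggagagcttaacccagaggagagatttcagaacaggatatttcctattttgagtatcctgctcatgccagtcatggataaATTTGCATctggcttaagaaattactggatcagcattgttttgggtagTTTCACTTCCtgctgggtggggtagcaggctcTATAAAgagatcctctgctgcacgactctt
SPRR2F: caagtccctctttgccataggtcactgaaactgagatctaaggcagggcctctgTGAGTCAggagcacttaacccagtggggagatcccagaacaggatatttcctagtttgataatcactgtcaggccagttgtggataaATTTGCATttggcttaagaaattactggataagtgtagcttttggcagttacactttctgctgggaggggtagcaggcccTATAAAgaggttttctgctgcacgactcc

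A match to TGANTCA stood in all 6 promoters and in 6.57% of 35116 RefSeq promoters of the same length. SPRR1B had 2 matches, 141 and 111 bases before the start, and SPRR2A and SPRR2F had 1 each, at 197 and 196. The octamer stood in SPRR2A and SPRR2F, 110 and 109 bases before the start, and in 1.63% of all promoters. The composite motif stood only in SPRR2A among the 6 and in 2.41% of all promoters. There it overlaps a match to the ETS motif AGGAAG, which stood in 4 of the 6 and in 28.7% of all promoters, and which in IVL overlaps the AP-1 match by 1 base. TATAAA stood in 5 of the 6, SPRR1B being the exception, and in 10.7% of all promoters. SPRR2A and SPRR2F were identical at 216 of 248 aligned bases. The motifs were chosen after the sequences had been read, and a match is a description of letters.

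The RNA of the 7 AP-1 genes had r from −0.20 to 0.08 with the summed members across cells. Protein and activity of AP-1 were not measured, and its part in the levels of the set was not tested. FOSL1, which encodes the AP-1 subunit FRA-1, had an r of −0.11 with the summed members in double-positive, −0.10 in single-positive and −0.20 in parental cells. It was at 501, 483, 368 and 360 CPM across the ranges of SPRR2 UMIs in double-positive cells, 540, 477, 299 and 269 in single-positive cells and 475, 445, 336 and 238 in parental cells. FOSL1 is named here after its values were seen. The other 6 subunits had an r between −0.06 and 0.08. Of 12 further regulators of squamous differentiation past the floor, ELF3, an ETS factor of epithelia, was highest, at r of 0.18, 0.21 and 0.22 in double-positive, single-positive and parental cells. TP63, the regulator of basal cells, gave −0.07, −0.01 and −0.06. None of the 12 regulators or 7 AP-1 genes lay 1.5-fold apart between libraries.

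The genes whose counts were most like the sum of the 8 across cells were led by C15orf48, protease inhibitors and a tight-junction gene. They were ranked by the lowest of the 3 correlations among 7579 genes, for which the median was −0.025 and the 95th percentile 0.047. C15orf48, which encodes a small mitochondrial protein, came first, with r of 0.49 in double-positive, 0.55 in single-positive and 0.50 in parental cells. SLPI, the secretory leukocyte protease inhibitor, followed with 0.42, 0.48 and 0.43, and CLDN4, a tight-junction claudin, with 0.37, 0.40 and 0.41. SERPINB1, an elastase inhibitor, gave 0.37, 0.38 and 0.38. PI3, which encodes elafin, itself a transglutaminase substrate, gave 0.37, 0.39 and 0.32. CSTB, LCN2, ASS1, MAL2 and WFDC2 completed the 10, with lowest correlations of 0.30, 0.29, 0.29, 0.29 and 0.28. SPRR2 genes gave 57.7%, 55.3% and 53.1% of the member UMIs in double-positive, single-positive and parental cells. The levels by SPRR2 range that follow are of genes picked by this correlation in the same cells. They describe that correlation and are no separate support. SLPI was at 345, 594, 1158 and 4340 CPM across the ranges of SPRR2 UMIs in double-positive cells, 380, 675, 1923 and 3056 in single-positive cells and 492, 857, 1887 and 2746 in parental cells, with 36.8%, 20.1% and 11.6% of its UMIs in the top range from 1 cell. PI3 was at 22.2, 139, 290 and 2386 in double-positive cells, 38.9, 106, 714 and 1050.5 in single-positive cells and 40.6, 112, 434 and 1191 in parental cells, but 1 cell gave 31.2%, 79.2% and 60.2% of its UMIs in the top range. At the other end, MT2A, a metallothionein, had r of −0.28, −0.30 and −0.36, and CAV1, the caveolar coat protein, −0.28, −0.27 and −0.33.

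Envelope and squamous genes outside the family followed in part. Of 13 desmosomal and cross-linked envelope partners past the floor, none lay 1.5-fold apart between libraries. After SLPI and PI3, JUP, which encodes plakoglobin, had the highest r with the sum, 0.26, 0.25 and 0.21 in double-positive, single-positive and parental cells. It was picked by that r in the same cells, so its levels by SPRR2 range are no separate support. JUP was at 175, 209, 321 and 436 CPM across the ranges in double-positive cells, 178, 245, 328 and 545 in single-positive cells and 164, 198, 298 and 425 in parental cells. KRT13, a keratin of stratified mucosa, had r of 0.15, 0.30 and 0.27, KRT17 0.18, 0.16 and 0.20, and KRT4 0.13, 0.19 and 0.19. KRT5, the basal keratin, gave −0.10, −0.11 and −0.10. Of 9 S100 genes of 1q21 past the floor, S100A9 (0.26, 0.19 and 0.25) and S100A6 (0.22, 0.21 and 0.18) were highest. S100A2 was the lowest of the 9 and went the other way, with −0.05, −0.16 and −0.13. TGM2 had an r of 0.00 in double-positive, 0.03 in single-positive and −0.01 in parental cells.

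Between libraries, single genes of these lists lay further apart than any member. KRT4 was at 22.8 CPM in double-positive, 50.2 in single-positive and 58.2 in parental cells, a log2 ratio of −1.14 for double-positive over single-positive and −1.35 for double-positive over parental cells. SERPINB3, a squamous protease inhibitor, was at 73.3, 105 and 133, with −0.86 for double-positive over parental cells. KRT6B (14.6, 16.3 and 24.3) and S100A4 (14.9, 21.98 and 24.9) lay past 1.5-fold in that comparison as well. Of 9 stratified keratins past the floor, 1 lay past 1.5-fold between double-positive and single-positive cells, 0 between single-positive and parental and 2 between double-positive and parental cells, all lower.

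Within each library the set varied with the phase of the cycle, called from S and G2M genes. The sum of the 8 was at 551 CPM in G1, 154 in S and 317 in G2M double-positive cells. It was at 592, 93.8 and 175 in single-positive cells and at 542, 131 and 244 in parental cells. G1 had the highest level and S the lowest in all 3 libraries. The share called G1 was 44.0% of double-positive, 35.9% of single-positive and 42.2% of parental cells. In the top range of SPRR2 UMIs it was 63.6%, 85.7% and 87.5%, of 22, 7 and 24 cells. SPRR2 was at 311, 64.0 and 197 CPM in G1, S and G2M double-positive cells, 360, 17.4 and 86.0 in single-positive cells and 290, 47.7 and 134 in parental cells. The 4 single-positive cells richest in SPRR2 were all called G1 and held 2028, 1081, 579 and 365 of 6375 SPRR2 UMIs there. The richest cell called G2M held 929 of 5471 SPRR2 UMIs of that phase in double-positive and 950 of 4130 in parental cells. Levels by phase without these cells were not computed. PCNA, a replication gene chosen after the values were seen, had r of −0.16, −0.17 and −0.15 with the sum.

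Split by cell size, the shares went in opposite directions in single-positive and parental cells. The boundary of 20000 UMIs was chosen after seeing the data. Of the single-positive cells under 20000 UMIs, 52.2% (46.3 to 58.0) had an SPRR2 UMI after thinning, against 14.7% (12.5 to 17.0) of those with 20000 or more. The same shares were 21.3% (17.0 to 26.2) and 23.4% (21.3 to 25.5) in double-positive cells. In parental cells they were 17.7% (15.3 to 20.4) and 23.8% (21.7 to 26.0), so the small parental cells had the lower share. SPRR1B showed the same gap, with 54.5% and 27.6% in single-positive cells, 31.4% and 36.9% in double-positive cells and 34.1% and 35.7% in parental cells. SPRR3 did not, with 4.38% and 4.23% in single-positive cells. The 297 small single-positive cells held SPRR2 at a low level each. Of the 155 with an SPRR2 UMI, 150 had 1 to 4 and 5 had 5 or more, against 107 and 39 of the 146 larger ones. The SPRR2 level was 156 CPM in the small and 171 in the larger single-positive cells, so many cells with few UMIs in one class stood against few cells with many in the other. These small cells had a median of 11491 UMIs and 3.31% mitochondrial UMIs, and 69.7% were called G2M. The larger ones had medians of 43164.5 UMIs and 0.994%, and 40.7% were called G2M. Many other genes were also seen in more of the small single-positive cells: C15orf48 in 77.1% against 32.7%, PI3 in 39.4% against 13.6% and KRT13 in 88.2% against 70.7%. Genes with an r of at most 0.06 with the sum in any library were among them. TGM2 was seen in 84.2% against 59.96%. FOSL2, which ranked 536 of 7579 by correlation with the sum, was seen in 33.3% against 19.8%. The gap was therefore not particular to the SPRR genes. The part of depth, RNA quality and phase in this gap was not tested.

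Among cells with at least 20000 UMIs the share with an SPRR2 UMI was 23.4% of double-positive (21.3 to 25.5), 14.7% of single-positive (12.5 to 17.0) and 23.8% of parental cells (21.7 to 26.0). With SPRR1B it was 36.9%, 27.6% and 35.7%. In these larger cells the intervals of the single-positive library lay below those of the other two, a gap that the pooled shares do not show. The sum of the 8 was at 393, 303 and 352 CPM in them, and its log2 ratios were 0.37, −0.22 and 0.16.

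**Figure D5:**
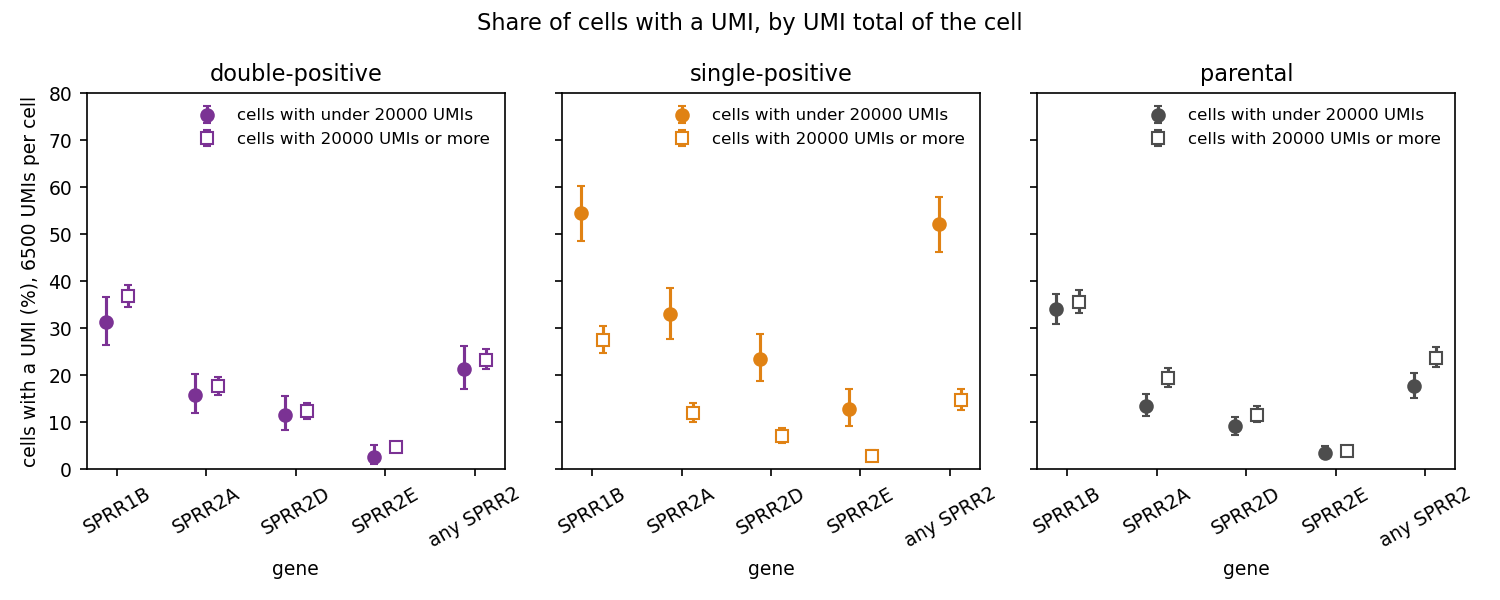
Share of cells with a UMI of SPRR1B, SPRR2A, SPRR2D, SPRR2E or any SPRR2 gene after thinning to 6500 UMIs (bars are 95% Clopper-Pearson intervals), for cells under 20000 UMIs (filled circles) and with 20000 or more (open squares), in double-positive, single-positive and parental cells. In single-positive cells the small cells lie far above the larger ones, 52.2% against 14.7% for any SPRR2 gene, whereas small parental cells lie below the larger ones, 17.7% against 23.8%.

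SPRR2 summed over cells was higher at low mitochondrial content in the sorted libraries, where few cells held much of it. SPRR2 was at 409 CPM in the 120 double-positive cells under 0.5% mitochondrial UMIs, against 209 in the rest. It was at 359 in 281 such single-positive cells against 89.8 in the rest, and at 170 in 767 such parental cells against 190 in the rest. The 3 richest single-positive cells, at 0.116%, 0.330% and 0.118% mitochondrial UMIs, were among the 281. They held 2028, 1081 and 579 of the 5388 SPRR2 UMIs of that class, so its level rests largely on these cells. In double-positive cells under 0.5%, 1 cell held 673 of 1996 SPRR2 UMIs. Without cells under 0.5%, the log2 ratio of the sum of the 8 was 0.73 for double-positive over single-positive, −0.66 for single-positive over parental and 0.074 for double-positive over parental cells, and the part of cell quality in these ratios was not tested.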

How the data were processed

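The deposited matrices hold raw counts of UMIs per gene and barcode, written by Cell Ranger per the file headers. Build GRCh38 is named in the submitters' processing notes, as are Seurat 4.0.6 and Cell Ranger 4.0.0. No source used here states which gene annotation was counted. Each matrix lists 737280 barcodes and 33694 features, and the libraries total 62517276 UMIs (double-positive), 51637677 (single-positive) and 65107147 (parental). Barcodes with at least 6500 UMIs were kept as cells, which held 97.8%, 97.7% and 98.0% of the UMIs. No doublet caller was run, and doublets were not removed.

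Counts were summed per library and scaled to 1000000 (CPM). Intervals are 95% Poisson for levels, Clopper-Pearson for shares and conditional binomial for ratios. A count of 0 was given the limit of 3 counts. With 1 library per group there was no test, and the description went by a fold of 1.5 among genes averaging 10 CPM or more. Phases were called with scanpy 1.11.5 on thinned cells. Paralog windows used GENCODE 29 transcripts, and promoters were credited to RefSeq (GRCh38.p14). Intervals of the ratios were checked only on counts simulated with Poisson error, the error they assume. That check does not cover spread between cells or between libraries.

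The genes and lists were chosen with earlier results of these data known. Besides the 8 members, named genes were the 10 most correlated with their sum, at most 3 per list past 1.5-fold and at most 3 per list by correlation, all other SPRR and transglutaminase genes, and those said to be chosen after their values were seen. MT2A, CAV1, KRT5, S100A2, TP63, LOR, KRT7, CD68, PTPRC, and the genes given by cell size (C15orf48, PI3, KRT13, TGM2 and FOSL2) were also taken after seeing values. Alternatives changed the cell call, cell quality, depth, cell weights, cell size, scaling, free RNA, phase and the richest cells. Scripts ran under Python 3.11.15 with scipy 1.17.1, numpy 2.4.6, Biopython 1.88, matplotlib 3.10.9 and pandas 2.3.3.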

Additional observations from a re-analysis of the deposited data

How the results depend on the processing

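Each library stands alone, so the ratios have no spread between replicates, and the values below were set against counting intervals. No paired analysis was possible because each group has 1 library and the groups share only the replicate number 1. For double-positive over single-positive cells the log2 ratio of the sum of the 8 genes, 0.34, kept its sign in 15 of 16 alternatives. It was 0.73 without cells under 0.5% mitochondrial UMIs, 1.54 in the shared range of 22974 to 32998 UMIs (142 single-positive cells), 0.59 without the 5% of cells with the most UMIs, −0.10 in G1 cells, 0.53 without the 1% of cells richest in the members, 0.41 in thinned cells and 0.38 as a mean over cells. For single-positive over parental cells, −0.15, the same 5 subsets gave −0.66, −1.37, −0.38, 0.13 and −0.48, with −0.11 as a mean over cells, −0.20 with median-of-ratios scaling and −0.11 without SPRR1B. For double-positive over parental cells, 0.19, the values were 0.074 without cells under 0.5%, 0.16 in the shared range, 0.022 in G1 cells, 0.048 without the richest 1%, 0.28 in thinned cells, 0.27 as a mean over cells and 0.22 without SPRR1B. A pair of settings was added after seeing the data: cells with at least 20000 UMIs gave 0.37, −0.22 and 0.16, and leaving out the richest 5% gave 0.54, −0.58 and −0.046, in the order of the 3 comparisons. The causes of these moves were not tested. The other cell calls, removal of shared barcodes and subtraction of 2% free RNA kept all 3 ratios within their intervals. Removal of shared barcodes left 1933 double-positive, 1289 single-positive and 2402 parental cells, so it could move little. The limit of 20%, counted among the 16 alternatives, left out no cell and could not move a ratio. Among 84 pair correlations, 82 were above 0 in thinned cells, 82 in G1 cells and 84 with all UMIs.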

Other observations

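S100A7, a neighbour of the SPRR genes in the epidermal differentiation complex, was named after its values were seen. It had 615 UMIs in double-positive, 41 in single-positive and 92 in parental cells, and 391 of the 615 lay in 1 double-positive cell. That cell, called G2M, was the second richest in SPRR2 of its library, with 929 SPRR2 UMIs of 42648. The richest single-positive cell in SPRR2 held 16 of the 41 S100A7 UMIs. S100A8 had 594, 219 and 650 UMIs in double-positive, single-positive and parental cells, with 191 in the double-positive cell at rank 5 by SPRR2.

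PRSS1, a trypsinogen gene of acinar cells, was at 4.20 CPM in double-positive, 4.46 in single-positive and 24.2 in parental cells, while its list of 7 acinar markers had 5, 5 and 4 genes at 0.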
